A study of Homo sapiens with 18 samples.

Results

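AML1-ETO binding sites that were called by both an anti-ETO and an anti-Flag antibody in control Kasumi-1 cells, and by neither antibody after knock-down of miR-130a, are described here. Kasumi-1 is a human acute myeloid leukaemia line with the t(8;21) translocation, and the cells carried a Flag-tagged AML1-ETO. The intervals were chosen by their peak calls: they stand in the authors' deposited list of control-unique intervals and overlap no knockdown anti-ETO peak and no knockdown anti-Flag peak by even 1 bp. This rule gave 617 intervals out of 3059 control-unique intervals and out of 12247 control dual-antibody intervals, meaning intervals called with both antibodies, so 5.04% of the latter were lost by both antibodies. The absence of a call is therefore what defined these intervals, and it is not a result about them.

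Both conditions used Flag-tagged AML1-ETO Kasumi-1 cells that had been transduced, sorted as viable GFP-positive cells on day 3 and profiled by CUT&RUN, in which an antibody directs a nuclease to its target and the released DNA is sequenced. Per the sample titles, one condition was control and the other had miR-130a, a microRNA, knocked down, with 3 libraries for each of anti-ETO, anti-Flag and mouse IgG. The vectors, the control construct and the place of the Flag tag are not given in the sources used here, and one cell line carried all conditions. The deposited lists give positions only, with 1 list per antibody and condition, so the 3 libraries of a group could not be compared and the depth behind a call is unknown. The single-antibody lists held 14264 control anti-ETO, 23162 control anti-Flag, 22594 knockdown anti-ETO and 25961 knockdown anti-Flag peaks.

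AML1-ETO joins the DNA-binding Runt domain of RUNX1 to most of RUNX1T1 (ETO). The Runt domain reads the RUNX core sequence TGTGGT, and the ETO part recruits corepressors of the NCoR family, of which TBL1XR1 is a subunit. The fusion binds beside ETS, E-protein and AP-1 factors at promoters and at distal elements, and it is known for holding back myeloid differentiation.

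Promoter windows touched by lost intervals give part of the sequence at these sites. RefSeq promoter windows of GRCh38.p14, from 250 bases before to 50 bases after a start site, were matched by position, and 182 of 34789 windows, from 165 genes, touched a lost interval. Only 21 windows lay wholly inside one. The following 5 are shown out of 9 of protein-coding genes that had no knockdown peak in the gene or within 10 kb of it. They were chosen after their values were seen. Each runs 5′ to 3′ on the strand of its gene, and capitals mark GGGCGG (the SP/KLF box) and CCGGAA (the ETS site) on either strand.
HMGCS1: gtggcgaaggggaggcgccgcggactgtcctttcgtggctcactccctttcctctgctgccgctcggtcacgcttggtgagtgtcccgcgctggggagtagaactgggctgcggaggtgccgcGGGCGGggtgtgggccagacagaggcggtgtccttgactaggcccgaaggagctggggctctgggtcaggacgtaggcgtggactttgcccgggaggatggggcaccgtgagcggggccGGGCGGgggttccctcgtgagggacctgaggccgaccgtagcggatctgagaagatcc
ATOX1: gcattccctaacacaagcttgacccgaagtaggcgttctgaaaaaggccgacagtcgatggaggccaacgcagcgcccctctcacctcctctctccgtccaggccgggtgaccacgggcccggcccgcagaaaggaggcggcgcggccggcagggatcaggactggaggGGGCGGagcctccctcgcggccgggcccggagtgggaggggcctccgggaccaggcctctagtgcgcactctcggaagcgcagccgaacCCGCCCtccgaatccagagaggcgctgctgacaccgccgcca
ZFAND5: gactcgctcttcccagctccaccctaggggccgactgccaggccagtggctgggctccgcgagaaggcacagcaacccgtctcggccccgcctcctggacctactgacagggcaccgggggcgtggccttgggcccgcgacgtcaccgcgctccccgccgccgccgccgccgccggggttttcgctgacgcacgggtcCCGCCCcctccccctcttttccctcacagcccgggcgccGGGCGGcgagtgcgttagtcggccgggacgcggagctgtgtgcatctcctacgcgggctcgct
GTPBP8: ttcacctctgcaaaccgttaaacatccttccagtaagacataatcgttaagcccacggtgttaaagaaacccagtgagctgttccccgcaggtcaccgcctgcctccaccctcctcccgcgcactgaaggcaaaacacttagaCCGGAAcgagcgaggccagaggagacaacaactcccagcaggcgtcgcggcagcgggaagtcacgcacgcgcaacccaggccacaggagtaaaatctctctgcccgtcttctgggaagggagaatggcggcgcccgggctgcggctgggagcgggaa
TMEM87A: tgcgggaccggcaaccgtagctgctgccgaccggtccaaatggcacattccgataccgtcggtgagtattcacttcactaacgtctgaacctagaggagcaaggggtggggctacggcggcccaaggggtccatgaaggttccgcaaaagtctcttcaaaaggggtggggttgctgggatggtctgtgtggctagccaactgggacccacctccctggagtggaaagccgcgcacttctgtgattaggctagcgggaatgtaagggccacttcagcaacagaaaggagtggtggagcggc

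HMGCS1 makes HMG-CoA for cholesterol synthesis, and its window (chr5:43313132-43313431, minus strand) held 2 SP/KLF boxes and no ETS site. The interval over it was 517 bp wide (chr5:43312921-43313437), and the nearest knockdown peaks lay 25223 bp away for anti-ETO and 169353 bp away for anti-Flag. ATOX1 is a copper chaperone, and its window (chr5:151758582-151758881, minus strand) also held 2 SP/KLF boxes. ZFAND5, a ubiquitin-binding zinc finger protein, had its window (chr9:72365159-72365458, minus strand) under one of the widest lost intervals, of 1085 bp, with 2 SP/KLF boxes. The window of GTPBP8, a GTP-binding protein gene (chr3:112990734-112991033, plus strand), held 1 ETS site and 0 SP/KLF boxes. The window of TMEM87A (chr15:42273016-42273315, minus strand) held neither. It shares its interval with GANC, an alpha-glucosidase gene on the opposite strand. The 5 windows thus differ in these motifs and 0 of the 21 whole windows held TGTGGT.

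The RUNX core TGTGGT, searched on both strands, was present in 15 of the 182 windows touched by a lost interval (8.24%, 95% Wilson interval 5.06 to 13.2). Over all 34789 windows of the same length the share was 13.1%. It was 11.8% (10.1 to 13.7) in 1264 windows touched by control-unique intervals that kept a knockdown anti-ETO call, and 10.5% (9.75 to 11.4) in 5607 windows touched by control intervals with both knockdown calls. In only 4 of the 15 windows did the core lie under the lost interval itself. These 4 stretches, the promoter bases under the interval with the core in capitals, are shown because they are where a RUNX core and a lost interval coincide in a promoter.
LDHA: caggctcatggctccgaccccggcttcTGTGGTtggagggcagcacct
SLC22A4: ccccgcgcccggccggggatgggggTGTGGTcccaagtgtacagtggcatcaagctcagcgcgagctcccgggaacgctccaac
SYT11: ctcgttttggaACCACAgcgcgtca
LOC124900954: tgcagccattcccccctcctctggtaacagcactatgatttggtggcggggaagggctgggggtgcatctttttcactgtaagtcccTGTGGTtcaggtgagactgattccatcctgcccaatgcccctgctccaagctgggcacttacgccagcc

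LDHA encodes lactate dehydrogenase A, SLC22A4 an organic cation transporter and SYT11 a synaptotagmin, and LOC124900954 is a long non-coding RNA gene. The bases shown are chr11:18394313-18394360, chr5:132294360-132294443, chr1:155859317-155859341 and chr5:32505675-32505830, all on the plus strand. SYT11 carries the core on the strand opposite to the gene. At LDHA the interval of 319 bp lay 9737 bp from the nearest knockdown anti-ETO peak and 10006 bp from the nearest anti-Flag peak. At SLC22A4 the gaps were only 231 and 248 bp.

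Counted over the promoter bases under intervals, TGTGGT occurred 4 times in 22.2 kb for lost intervals, or 1.80 per 10 kb, against 4.71 for intervals that kept anti-ETO and 3.95 for those with both knockdown calls. All promoter windows together gave 4.85 per 10 kb. With 4 matches the lost value is imprecise, and windows cover only part of the intervals, mostly those at gene starts. The SP/KLF box GGGCGG was in 132 of the 182 windows (72.5%, 65.6 to 78.5), against 77.1% and 78.0% in the other classes and 44.95% over all windows. The ETS site CCGGAA was in 31.9% (25.5 to 38.95), against 33.2%, 28.2% and 17.2%. The AP-1 site TGACTCA was in 2 windows (1.10%), against 2.21% and 2.53% in the other classes and 4.93% over all windows. GATAA was in 12.6%, against 11.6%, 9.61% and 22.8%, and the E-box CAGCTG in 15.9%, against 15.3%, 16.8% and 17.95%. For these 3 motifs all classes lay below the share over all windows. Windows touched by lost intervals had a median GC content of 64.8%, against 67.3% and 68.3% in the other classes and 58.7% over all windows. These shares and GC contents were counted over whole windows, including bases outside the interval. Counted over bases under intervals, GGGCGG occurred 41.85 times per 10 kb in lost intervals, against 57.85 and 65.4 in the other classes and 35.9 over all windows, and CCGGAA 13.5 times, against 15.05, 12.6 and 7.59. By this count the SP/KLF density of lost intervals stood nearer to all promoters than to either other class, which the share of windows does not show. The bases counted were 22.2 kb from 182 windows, 216.6 kb from 1264 and 1270 kb from 5607. The classes thus differ in how much of each window was counted, which limits these densities and that of TGTGGT. A match describes these letters only and is not evidence of binding.

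Lost intervals were narrow. Their widths ran from 176 to 1614 bp with a median of 415 bp (quartiles 274 and 544). Control-unique intervals that kept a knockdown anti-ETO call had a median of 486.5 bp, and control intervals with both knockdown calls had one of 822 bp. The control anti-ETO peak within a lost interval had a median width of 311 bp and the control anti-Flag peak one of 353 bp, and the anti-Flag peak was the wider one in 360 of the 617 (58.35%). Both antibodies placed their control peaks alike in the 3 classes: the overlap of the anti-ETO and anti-Flag peak was a median of 73.5% of their joint length in lost intervals, 73.9% in those keeping anti-ETO and 73.9% in those with both knockdown calls. A wider interval has more room to meet a knockdown peak, so width is tied to the rule and was not tested.

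The gap to the nearest knockdown peak varied widely among the lost intervals. It had a median of 10047 bp for anti-ETO (range 30 to 2690749) and of 28543 bp for anti-Flag (range 32 to 7471783). A knockdown peak of either antibody lay within 500 bp of 154 intervals (24.96%), between 500 bp and 50 kb of 268 (43.4%), and farther than 50 kb from 195 (31.6%). Gaps were rarely tiny, since 7 intervals had a knockdown peak within 100 bp. The closer knockdown peak was an anti-ETO peak for 139 of the nearest 154, 201 of the middle 268 and 174 of the farthest 195. The plot of cumulative gaps shows that the anti-ETO curve lies above the anti-Flag curve over most of its length.

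**Figure D1:**
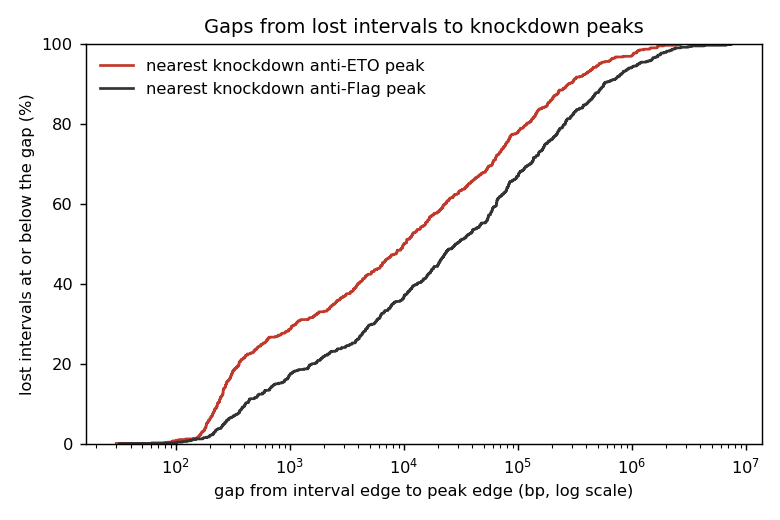
Cumulative percentage of the 617 lost intervals (vertical axis) whose nearest knockdown anti-ETO peak (red) or anti-Flag peak (black) lies within a given gap in bp (horizontal axis, log scale). The anti-ETO curve reaches 23.7% at 500 bp and 67.9% at 50 kb, and the anti-Flag curve 11.7% and 55.3%.

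The intervals nearest to the limit of the rule illustrate it. Just inside it, an interval of 685 bp at the start of TPBG, which encodes a trophoblast glycoprotein (chr6:82363373-82364057), lay 30 bp from a knockdown anti-ETO peak and 609711 bp from an anti-Flag peak. Another of 214 bp across CORO1B and PTPRCAP (chr11:67436376-67436589) lay 32 bp from an anti-Flag peak. Further ones lay at 79 bp (chr9:136749663-136750037, outside named genes) and 85 bp (in NFIX, a transcription factor gene). Just outside the rule, control-unique intervals at MTG2, LAMP2, SMG6, near AMIGO1 and at EIF4EBP2 overlapped a knockdown peak by 17, 32, 44, 57 and 60 bp.

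At the other extreme, the most isolated interval was 177 bp wide in a gene-free stretch of chromosome 4 (chr4:33411499-33411675), with the nearest knockdown peak 2690749 bp away. The next lay on chromosome 4 as well (chr4:115781814-115782145), 2425581 bp from one. The 3 that followed lay at the start of ZWINT, a kinetochore gene (chr10:56360969-56361296), in the host gene of miR-4458 (chr5:8458206-8458436) and inside GRM7, a glutamate receptor gene (chr3:7682739-7682953). All 5 were at most 332 bp wide.

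Lost intervals lay away from gene boundaries more often than either comparison class. Their centre was within 1 kb of the start or end of an annotated gene for 255 of 617 (41.3%, 37.5 to 45.3). Among control-unique intervals that kept a knockdown anti-ETO call it was so for 1419 of 2284 (62.1%, 60.1 to 64.1), a difference of -20.8 percentage points (-25.1 to -16.4, odds ratio 0.429). Two-sided Fisher's exact test on intervals gave an adjusted p of 1.17e-19 (Benjamini-Hochberg over 4 comparisons). Among control intervals with both knockdown calls it was 5462 of 9061 (60.3%, 59.3 to 61.3), a difference of -18.95 points (-22.9 to -14.9, odds ratio 0.464), and the same test gave an adjusted p of 1.17e-19 by Fisher's exact calculation. Intervals are not replicates of a condition, so these tests compare lists of positions. An interval is lost only where no knockdown peak lies, so the positions of knockdown peaks bear on these shares. How much they do was not tested. When the narrowest knockdown peaks were dropped until each list was as long as its control counterpart, the lost class grew to 1753 and the differences shrank to -5.40 and -2.95 points (Fisher's exact test, adjusted p = 0.00187 and 0.0321).

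Strand was known for the start sites of 15693 of 19974 protein-coding genes, on all chromosomes tested except chromosome 8, whose start sites were not used here. Of the 598 lost intervals on the other chromosomes, 204 (34.1%, 30.4 to 38.0) had a start site within 1 kb, 70 (11.7%) had another gene boundary there, 206 (34.45%, 30.75 to 38.4) lay elsewhere inside a gene and 118 (19.7%, 16.7 to 23.1) lay outside genes. The other boundaries included gene ends and also the starts of genes for which no start site was known here. A start site was within 1 kb of 54.3% (52.2 to 56.4) of intervals that kept anti-ETO and of 51.9% (50.9 to 53.0) of those with both knockdown calls. Outside genes lay 11.2% and 10.7% of these. Over 50 kb from any of these start sites lay 16.9% (14.1 to 20.1) of lost intervals, against 9.53% and 5.40%.

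**Figure D2:**
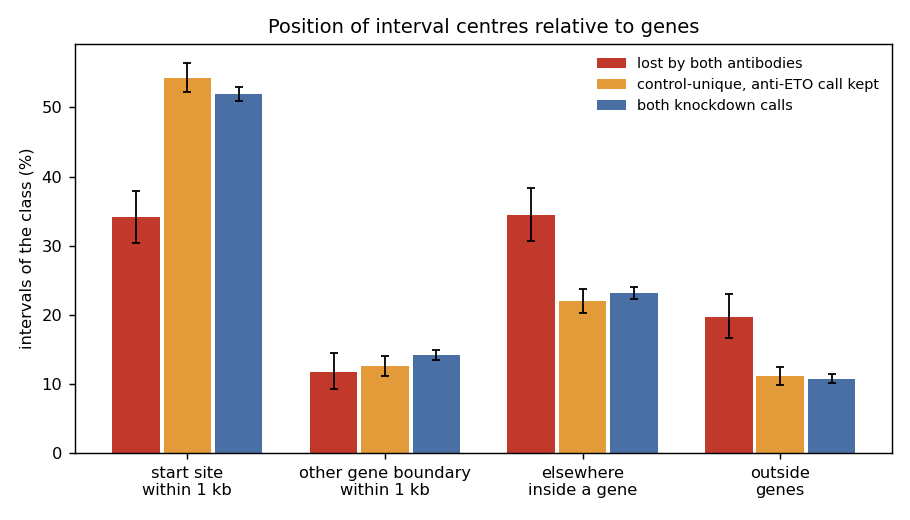
Percentage of intervals of each class (bars, with 95% Wilson intervals) whose centre lies near a start site, near another gene boundary, elsewhere in a gene or outside genes, chromosome 8 left out. Lost intervals (red, 598) have the lowest bar at start sites, 34.1%, and the highest inside genes, 34.45%, and outside genes, 19.7%.

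Narrow intervals lay at start sites more often than wide ones in the lost class. The share with a start site within 1 kb was 50.9% (43.3 to 58.5) of 163 lost intervals up to 300 bp, 32.6% of 184 up to 450 bp, 24.1% of 162 up to 600 bp and 24.7% (16.9 to 34.6) of 89 wider ones. In each of these 4 width ranges the share was lower in lost intervals than in both other classes. In the narrowest range it was 68.6% of intervals keeping anti-ETO and 65.4% of those with both knockdown calls, and in the widest 51.2% and 52.9%. Restricting every class to 300 to 600 bp left the differences near gene boundaries at -22.8 and -19.45 points (Fisher's exact test, adjusted p = 2.38e-13 and 2.04e-11). Over all widths these differences were -20.8 and -18.95 points. Classes can still differ in width within the range of 300 to 600 bp, and the part of width in the difference was not tested.

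**Figure D3:**
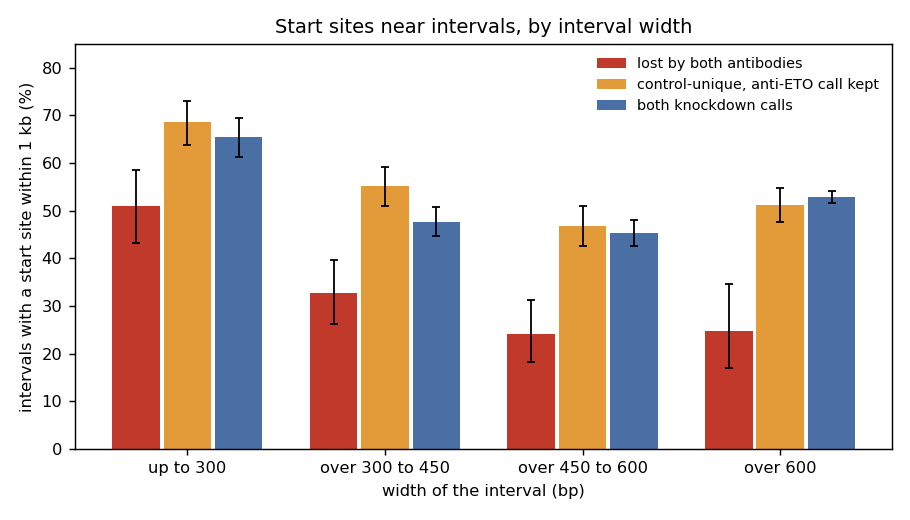
Percentage of intervals with a start site within 1 kb (bars, with 95% Wilson intervals) in 4 ranges of interval width in bp, for the 3 classes, chromosome 8 left out. The red bars of the lost intervals are the lowest in each range and go from 50.9% in the narrowest to 24.7% in the widest.

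Where a lost interval did lie near a start site, it mostly lay beside it. Of the 204, 55 (26.96%, 21.3 to 33.4) covered the start itself, against 46.2% in the class that kept anti-ETO and 66.6% in the class with both calls, whose intervals are wider. The median distance from centre to start was 256.5 bp in lost intervals, 211 and 245 bp in the others. The centre lay downstream of the start for 115 of 204 (56.4%, 49.5 to 63.0), 55.0% and 57.4%. No test was made of these 3 features.

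As a description without a test, the lost intervals were also grouped by the gap to the nearest knockdown peak, which the rule itself used. Of those with a knockdown peak within 500 bp, 78 of 150 (52.0%, 44.1 to 59.8) had a start site within 1 kb, close to the shares in the comparison classes. Of those with the nearest peak between 500 bp and 50 kb away it was 60 of 264 (22.7%, 18.1 to 28.2), and of those beyond 50 kb 66 of 184 (35.9%, 29.3 to 43.0). Median widths in the 3 groups were 368, 447 and 402 bp. The gene-dense chromosomes 11, 16, 17 and 19 held 27.3%, 27.2% and 9.74% of the 3 groups.

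The gene-rich chromosomes 11, 16, 17 and 19, a set taken over from earlier work on these data, held 134 of the 617 lost intervals (21.7%, 18.6 to 25.1). They held 34.5% (33.5 to 35.5) of control intervals with both knockdown calls, a difference of -12.8 percentage points (-16.0 to -9.23, Fisher's exact test, adjusted p = 3.08e-11). Intervals that kept anti-ETO stood at 21.2% (19.6 to 22.9), and the difference of 0.527 points, with an interval of -3.00 to 4.32, did not pass the test (Fisher's exact test, adjusted p = 0.782). Within 300 to 600 bp that difference was -2.75 points (Fisher's exact test, adjusted p = 0.303). The spread of knockdown peaks over chromosomes bears on the rule as well, and its part in these shares was not tested.

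By chromosome, against 5.04% over all, the share of control dual-antibody intervals that was lost was lowest on chromosome 19, with 37 of 1303 (2.84%, 2.07 to 3.89), and on chromosome 17, with 35 of 1025 (3.41%, 2.46 to 4.71). It was highest on the X chromosome, with 26 of 248 (10.5%, 7.25 to 14.9), and on chromosome 18, with 13 of 142 (9.15%, 5.43 to 15.0). Chromosome 21, which holds RUNX1, had 8 of 177 (4.52%). Chromosome 15, with 26 of 321 (8.10%, 5.59 to 11.6), and chromosome 3, with 44 of 557 (7.90%, 5.94 to 10.4), also stood above the overall share.

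**Figure D4:**
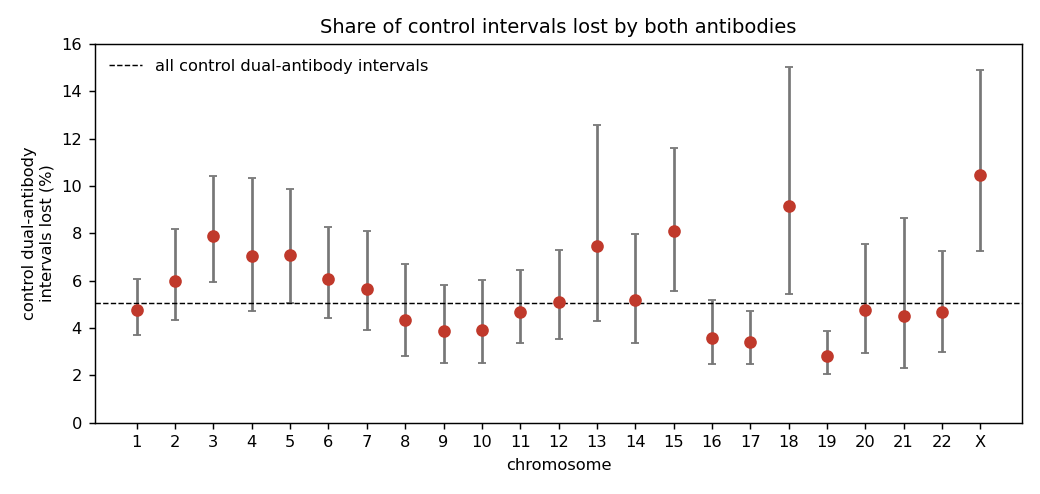
Percentage of control dual-antibody intervals lost by both antibodies on each chromosome (points, with 95% Wilson intervals), with the 5.04% over all intervals as a dashed line. The points run from 2.84% on chromosome 19 to 10.5% on the X chromosome.

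Lost intervals stood mostly alone. Only 22 of the 617 (3.57%) had another lost interval within 10 kb, and these formed 11 pairs. A deposited shared interval, present in both conditions, lay within 10 kb of 159 (25.8%) and within 50 kb of 290 (47.0%). A knockdown-unique interval lay within 1 kb of 21 (3.40%) and within 10 kb of 79 (12.8%). These neighbours come from the same calls as the rule and are given as a description.

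Protein-coding genes were then scanned for lost intervals in the gene body or within 10 kb, and 640 of 19974 genes had one (3.2%). A window can reach into neighbouring genes, so one interval can count for several genes, and 133 of the 617 intervals lay near no protein-coding gene. Of the 640 genes, 364 (56.9%) had a knockdown dual-antibody interval elsewhere in the same window, and 153 (23.9%) had no knockdown peak of either antibody. For 264 (41.25%) the lost intervals were the only control dual-antibody intervals. Among all genes with a control dual-antibody interval, the shares with a knockdown one and with no knockdown peak were not counted. The 56.9% and 23.9% are therefore not read as high or low. Over all 19974 protein-coding genes, 7878 had a knockdown dual-antibody interval and 8756 a control one. Nothing particular to the 640 genes is read from their share.

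Among 10 gene lists, 17 of 229 genes (7.42%) had a lost interval, beside 3.2% of all protein-coding genes. Of genes with any control dual-antibody interval these are 17 of 152 (11.2%) and 640 of 8756 (7.31%). Listed genes had such a control interval more often, 152 of 229 against 8756 of 19974. Its part in the gap was not tested. The lists were chosen with results of these data known, and nothing particular to them is read from these shares. In the gene body alone, 8 of the 229 listed genes had one (3.49%), beside 361 of all 19974 protein-coding genes (1.81%).

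In the RUNX, CBFB and ETO family 2 of 7 genes had a lost interval. RUNX1, which gives the fusion its DNA-binding part, had 11 control dual-antibody intervals, of which 9 kept both knockdown calls, 1 kept anti-ETO and 1 was lost. The lost one lay in the gene body (chr21:34808245-34808781, 537 bp; the gene table does not separate exons from introns), with the nearest knockdown peaks 78824 bp (anti-ETO) and 78611 bp (anti-Flag) away. RUNX3, a related factor, had 4, of which 1 was lost, in its flank (chr1:24898095-24898643). Both genes still had knockdown dual-antibody intervals, 9 at RUNX1 and 3 at RUNX3. Of 19 partners and corepressors, which include TBL1XR1, the NCOR genes and the E-protein genes, 0 had a lost interval and 13 had a control dual-antibody interval. Of all protein-coding genes with a control dual-antibody interval, 7.31% had a lost one, so 0 of 13 is not read as a result.

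Of 16 myeloid transcription factor genes, IRF8 and CEBPB had one. IRF8, which directs monocyte and dendritic cell fate, lost 1 of 5 control intervals, in the gene body (chr16:85915082-85915737). A knockdown anti-ETO peak stood 558 bp from it and an anti-Flag peak 599 bp. CEBPB, a bZIP factor of myeloid cells, had 2 control intervals and no knockdown dual-antibody interval. One kept anti-ETO, and the other, centred 4183 bp upstream of the CEBPB start and inside CEBPB-AS1 (chr20:50186196-50186603), was lost.

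Granule and mature myeloid genes had 4 of 17. At CTSG, the neutrophil protease cathepsin G, the only control interval, of 209 bp and centred 316 bp upstream of the start (chr14:24576462-24576670), was lost, and no knockdown peak of either antibody lay within 10 kb. At CSF2RA, the alpha chain of the GM-CSF receptor, the only control interval was lost (chrX:1292805-1293048, in the pseudoautosomal region, where reads fit the X and Y chromosome alike), while 2 knockdown anti-ETO peaks stood elsewhere at the gene. UBASH3B, a phosphatase that dampens tyrosine kinase signalling, lost 1 of 6, and SELPLG, the selectin ligand PSGL-1, lost 1 of 2. CTSG and CSF2RA thus had no dual-antibody interval in knockdown, and UBASH3B had 4 and SELPLG 1.

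Of 15 TGF-beta and SMAD genes, SKI and SMAD7 had a lost interval. Both encode inhibitors of the pathway. SKI lost 1 of 7 control intervals (chr1:2255654-2256515, 862 bp) and had 9 knockdown dual-antibody intervals. SMAD7 lost 1 of 2 (chr18:48929047-48929253) and had 2 in knockdown. ID1, an inhibitor of E-proteins and the only one of 18 stem, progenitor and Notch genes, lost 1 of 3, in its flank (chr20:31610469-31610981). DNMT3A, a de novo DNA methyltransferase, lost 1 of 2 (chr2:25301432-25302044). It was the only one of 15 genes in a list drawn up here under the heading of co-mutation in t(8;21) leukaemia. That heading was not checked against mutation data.

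Of 85 ribosomal protein genes, which encode the protein part of the ribosome, 5 had one, among them RPL22, RPL35 and RPS15. No lost interval lay in the body of any of these 5 genes: at RPL22 and RPL35 the interval lay in the neighbouring genes RNF207 and WDR38. Cell cycle and survival genes had 0 of 15 and splicing and RNA polymerase II genes 0 of 22, with control dual-antibody intervals at 12 and 13 of them. Beside the 7.31% of all protein-coding genes with such an interval, these counts of 0 are not read as a result.

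The genes with the most lost intervals were led by MSN, which encodes moesin, a linker of membrane and actin. MSN had 4 control dual-antibody intervals and lost 3, one centred 282 bp upstream of its start (chrX:65667189-65667554) and the others inside the gene (chrX:65697483-65697945 and chrX:65698657-65699064). One interval with both knockdown calls remained there. No other gene had over 2. Of the 22 genes with 2, the 9 with the largest summed width of lost intervals are described.

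CAMK2D, a calcium/calmodulin-dependent kinase, and ARHGAP24, a GTPase-activating protein for Rac, each lost both of their 2 control intervals and had no knockdown peak of either antibody. In both genes one of the pair lay by a start site, 461 bp upstream at CAMK2D (chr4:113761824-113762573) and 142 bp downstream at ARHGAP24 (chr4:85475083-85475501). CGAS, the cytosolic DNA sensor, and MTO1, a mitochondrial tRNA-modifying enzyme, are neighbours that share the same 2 lost intervals (chr6:73461258-73461850 and chr6:73461992-73462470). Each of the genes had 3 control intervals, and the other one kept anti-ETO.

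PLCG2, a phospholipase of immune receptor signalling, lost 2 of 8 and PREX1, a Rac exchange factor, 2 of 7, and both kept most of the rest. RET, a receptor tyrosine kinase, lost 2 of 6, ATXN7, a subunit of the SAGA complex, 2 of 5, and DOCK4, a GTPase exchange factor, 2 of 3. At RET one of them was the second widest lost interval (chr10:43082708-43084233, 1526 bp), made of an anti-ETO peak of 307 bp and an anti-Flag peak of 1526 bp.

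**Figure D5:**
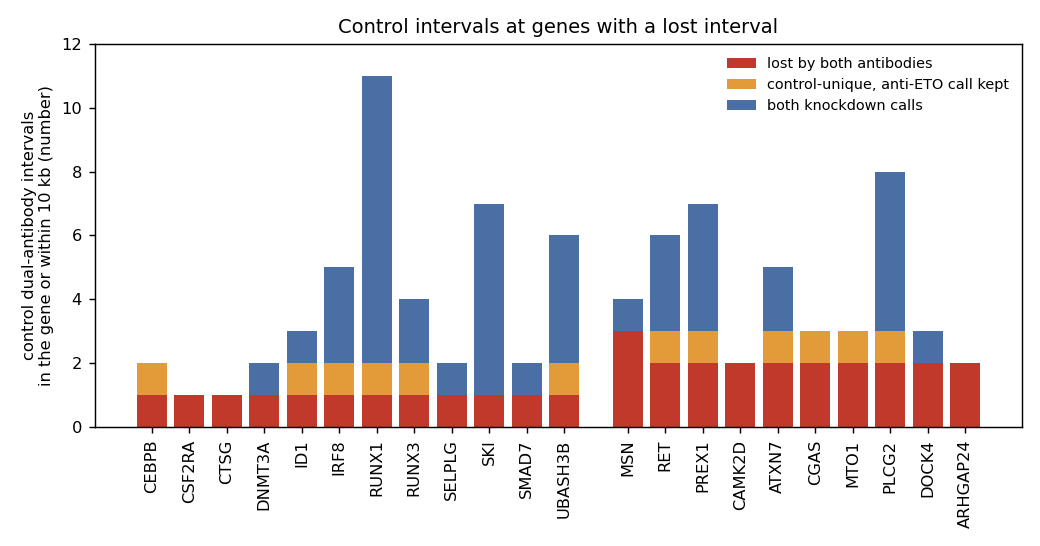
Number of control dual-antibody intervals in the gene or within 10 kb (stacked bars) for the 12 listed genes with a lost interval that are not ribosomal protein genes (left) and 10 genes with 2 or more lost intervals (right: MSN with 3, and of the 22 with 2 the 9 with the most lost bp), coloured by their state in knockdown. RUNX1 has 11 with 1 lost, MSN has 4 with 3 lost, and the bars of CAMK2D, ARHGAP24, CTSG and CSF2RA are wholly red.

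The widest lost interval, of 1614 bp, lay outside genes on chromosome 1 (chr1:157403211-157404824) and joined a control anti-ETO peak of 468 bp with an anti-Flag peak of 1614 bp. The others among the 10 widest lay in or across RET, BRI3BP, MTURN, the drug efflux gene ABCC1, the histone methyltransferase family gene PRDM8, ZFAND5, the ubiquitin ligase genes ZNRF1 and TRIM36, and CARD8-AS1. They ran from 905 to 1526 bp. In 6 of these 10 the anti-Flag peak was over 1.5 times as wide as the anti-ETO peak. At BRI3BP (chr12:124993888-124995315) both control peaks were wide, 1281 bp for anti-ETO and 1412 bp for anti-Flag, and a knockdown anti-ETO peak lay 280 bp away with the nearest anti-Flag peak 72235 bp away.

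Start sites of 196 protein-coding genes lay within 1 kb of a lost interval. Of these genes 76 had no knockdown peak of either antibody in the gene or within 10 kb, and 74 had a knockdown dual-antibody interval elsewhere. Over all 19974 protein-coding genes, 7878 had a knockdown dual-antibody interval. The same counts were not made for genes with other control intervals at their start. The rule leaves no knockdown peak on a lost interval, so nothing particular to the 196 genes is read from these counts. Genes of the first kind, picked here after their values were seen, included PLK1 and ZWINT of mitosis, FANCF and MMS22L of DNA repair, the proteasome gene PSMD1, the chaperonin gene CCT2, the ubiquitin gene UBB, the mitochondrial import genes TIMM13 and TIMM22, the enhancer factor MEF2A, and BMP4 and EFNA5, which encode secreted or membrane ligands. Genes of the 196 with a knockdown peak included BRCA1, BCL11A, HSPA8 and CXCR3. At HSPA8, the constitutive heat shock protein, the lost interval of 849 bp (chr11:123061630-123062478) covered the whole promoter window, and a knockdown anti-ETO peak lay 259 bp from it with the nearest anti-Flag peak at 344232 bp.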

How the data were processed

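CUT&RUN libraries of anti-ETO, anti-Flag and IgG were made in control and knockdown cells, 3 each, from 200000 sorted cells with 40 M reads planned for each, per the labels. The authors deposited 9 interval lists that hold chromosome, start and end and no score. Tools listed per the submitters' processing notes, without role, are fastp 0.19.5, Bowtie2 2.3.5, MACS2 2.2.5 and HOMER 4.8, with the builds hg38 and sacCer3. Thresholds, use of IgG and the handling of replicates are not given in the sources used here. A longer list in one condition changes which intervals count as lost, and the IgG libraries were not analysed here.

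Overlaps were of at least 1 bp, in Python 3.11.15 (numpy 2.4.6, pandas 2.3.3, scipy 1.17.1, statsmodels 0.14.6). Genes (59098 on chromosomes 1 to 22 and X) and promoter windows were those of RefSeq GRCh38.p14. All 229 listed genes were found. Ribosomal protein genes leave out kinases, a binding protein and read-through genes whose symbols begin alike. Intervals on shares are 95% Wilson, on differences Newcombe, and cover counting error only. Overlap code was tested on simulated lists of 2000 intervals and recovered 1200 of 1200 planted overlaps. Differences in share between disjoint classes were tested with Fisher's exact test (two-sided).

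Named intervals were the 10 widest, the 5 nearest to and 5 farthest from a knockdown peak, and those at listed genes and at the 10 genes with the most, ties broken by summed width. Some of these are not reported here. Members, lists and tests were chosen with earlier results of these data known. Alternatives tried were other overlap rules, shortened knockdown lists, width ranges, boundary distances and gene flanks.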

Additional observations from a re-analysis of the deposited data

How the results depend on the processing

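The difference in share near gene boundaries stayed negative and past the threshold in all 9 alternatives that changed the intervals or the boundary measure. It ran from -26.0 to -5.40 points against intervals keeping anti-ETO and from -32.2 to -2.95 against those with both knockdown calls. The smallest differences, -5.40 and -2.95, came with shortened knockdown lists, the only alternative that removed knockdown peaks. The other alternatives cannot show how far knockdown peak positions bear on the difference. The lower share on the gene-dense chromosomes against intervals with both knockdown calls also stayed past the threshold in all 5. Restriction to chromosomes 1 to 22 and X removed no interval and is not counted. The difference on these chromosomes against intervals keeping anti-ETO did not pass in any setting and turned to -2.75 points within 300 to 600 bp. The number of lost intervals was 617, and it was 463 with gaps of up to 500 bp counted as overlap, 635 with an overlap of at least 100 bp, and 1753 with shortened knockdown lists. By construction, shortening removes knockdown peaks. Listed genes with a lost interval numbered 8 in gene bodies (3.49%, beside 1.81% of all protein-coding genes) and 23 within 50 kb (10.04%, beside 6.75%). No paired analysis was possible because the lists carry no replicate. The lists hold no read numbers, so a lost call near the peak threshold could not be told apart from a site without signal.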
